A study of Mus musculus with 24 samples.

Results

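The clade B serpins are the branch of the serpin superfamily that resembles ovalbumin, and their genes in the mouse carry symbols that begin with Serpinb. Every gene of the deposited count table with such a symbol was taken, pseudogenes were left out, and at least 1 count in some tumor was required, which gave 26 of 53465 genes. Of 28 genes with such a symbol, Serpinb1-ps1 was left out as a pseudogene and Serpinb6d because it had no count in any tumor. Serpinb10 is annotated as a polymorphic pseudogene in the GENCODE annotation and as protein coding in RefSeq, and it was kept. The rule itself used no difference between tumors, although the members were chosen with earlier results of these data known.

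Bulk RNA was sequenced from 24 subcutaneous tumors, 3 from each of 8 BURP lines (tumor lines of Roswell Park, induced in urothelium with the carcinogen BBN). Each line was begun from 1 bladder tumor of a C57BL/6NTac mouse that had been given 0.1% BBN, a nitrosamine carcinogen of the urothelium, in its water from 8 weeks of age for up to 36 weeks, and was then passaged as tumor pieces in immune-competent mice of the same strain and sex. Of the 6 basal/squamous (Ba/Sq) lines, those numbered 12, 17 and 18 (BURP-12BaSq and so on) were male and those numbered 21, 24 and 25 female, and the stroma-rich line BURP-16SR and the neuroendocrine (NE)-like line BURP-19NE were male too. The 3 tumors of a line descended from 1 donor tumor and are not independent donors. Where several Ba/Sq lines were pooled into 1 group, the spread behind a p-value mixed differences among lines with those among passaged tumors. Such pooling was used against BURP-16SR and BURP-19NE and between the sexes. In the other tests the spread was that among passaged tumors and not among donors. With 1 line each, the SR and NE-like phenotypes could not be told apart from the line that carried them. The RNA came from whole tumors with their host stroma, so fewer cells of a type and less RNA per cell cannot be told apart.

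Most serpins trap a protease by offering it a loop as bait and then changing shape around the bound enzyme, although some members of clade B inhibit no protease. Clade B members lack a classical secretion signal and act largely inside the cell, where they guard against proteases that leak from lysosomes and granules. In squamous and other barrier epithelia several of them are among the abundant proteins, and others protect leukocytes from their own granule proteases.

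The 26 genes lay in a pair of clusters. The 12 on chromosome 1 lay between positions 106861173 and 107610484 and the 14 on chromosome 13 between 32842092 and 34002794 (GRCm38). Of the 26, 17 reached at least 10 counts in some tumor and 9 did not (Serpinb13, Serpinb3d, Serpinb3b, Serpinb3c, Serpinb1c, Serpinb9c, Serpinb9d, Serpinb9g and Serpinb6e). The most counts that any tumor held of one of these 9 genes was 9.17, for Serpinb9g, and Serpinb13 (headpin) and Serpinb9d had 1 count in 1 tumor each. At these depths such genes were near the limit of detection in every line.

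The total estimated count per tumor ran from 9295708 to 25370320, with a median of 17693147. A count of 0 in 1 tumor allowed a level of up to 0.1056 to 1.335 CPM (counts scaled to 1e+06 per tumor), counting error only. The loosest of these limits belonged to tumor C102-M30 of BURP-25BaSq, in which ribosomal RNA took 62.82% of the counts. Tumor C102-M1, labelled BURP-25BaSq, may carry a wrong label, since over 17024 genes it lay at a mean distance of 0.57 on the log2 scale from the BURP-21BaSq tumors and of 1.15 from the other tumors of its own line. One more tumor, C165-M30 of BURP-17BaSq, was slightly closer to another line (0.98 to BURP-24BaSq) than to its own (0.99). The 12 basal and squamous markers summed to between 10129 and 24026 CPM in the Ba/Sq tumors, to between 4.08 and 19.4 CPM in BURP-16SR, where Dsg3 was at 0, and to between 27.2 and 77.4 CPM in BURP-19NE. Of the 10 NE-like markers, 6 were tested in BURP-19NE and 2 were higher there, against 9.33% of all genes tested. The 10 summed to between 252 and 361 CPM in BURP-19NE and to between 9.79 and 109 CPM in the Ba/Sq tumors, without overlap, and Insm1 and Neurod1 were at 0 in BURP-19NE.

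The sequences just before the gene starts also differed between the clusters. In 250 bases upstream of the RefSeq start, the letters TGANTCA, with any base at N, were searched on both strands. They are a looser pattern than TGACTCA and TGAGTCA, the usual letters of AP-1 factors, and are called AP-1 letters here. They stood in 7 of the 11 chromosome 1 members that the promoter table held and in 0 of 13 on chromosome 13. Of all 32851 promoters, 6.75% held them. Serpinb1a and Serpinb13 were not in that table. The 7 were Serpinb5, Serpinb12, Serpinb11, Serpinb7, Serpinb2, Serpinb10 and Serpinb8, and the 4 chromosome 1 members without the letters were Serpinb3a, Serpinb3d, Serpinb3b and Serpinb3c. The TATA letters TATAAA, searched on both strands, stood in 7 of 11 members on chromosome 1 and 0 of 13 on chromosome 13, against 12.4% of all promoters. The letters were chosen with the levels of these genes known, and a match of letters is not a measured binding site.

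The upstream sequences of 4 chromosome 1 members are shown with the AP-1 letters in capitals because these genes were high in the Ba/Sq tumors, and that of Serpinb6a on chromosome 13 because it was the leading member in BURP-16SR and BURP-19NE. Coordinates and sequences are those of RefSeq on GRCm38.p6, each read 5′ to 3′ along its gene. Serpinb5 is chr1:106860925-106861174 on the plus strand, Serpinb11 is chr1:107362064-107362313 on the plus strand, Serpinb2 is chr1:107511173-107511422 on the plus strand, Serpinb8 is chr1:107589756-107590005 on the plus strand and Serpinb6a is chr13:34002795-34003044 on the minus strand.
Serpinb5: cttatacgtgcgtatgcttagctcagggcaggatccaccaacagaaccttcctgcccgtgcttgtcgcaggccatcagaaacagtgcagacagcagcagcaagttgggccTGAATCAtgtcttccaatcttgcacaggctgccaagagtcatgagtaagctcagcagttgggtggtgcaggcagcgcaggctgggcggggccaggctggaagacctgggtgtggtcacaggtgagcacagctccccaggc
Serpinb11: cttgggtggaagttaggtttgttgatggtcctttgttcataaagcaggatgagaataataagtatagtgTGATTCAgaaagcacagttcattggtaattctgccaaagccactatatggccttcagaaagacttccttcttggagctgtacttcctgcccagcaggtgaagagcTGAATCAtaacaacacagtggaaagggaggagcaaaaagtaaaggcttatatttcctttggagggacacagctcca
Serpinb2: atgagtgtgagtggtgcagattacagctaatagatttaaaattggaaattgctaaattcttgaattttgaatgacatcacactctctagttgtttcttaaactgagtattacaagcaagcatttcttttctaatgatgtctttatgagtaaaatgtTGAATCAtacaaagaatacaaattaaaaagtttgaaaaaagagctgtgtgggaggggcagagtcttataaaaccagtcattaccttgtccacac
Serpinb8: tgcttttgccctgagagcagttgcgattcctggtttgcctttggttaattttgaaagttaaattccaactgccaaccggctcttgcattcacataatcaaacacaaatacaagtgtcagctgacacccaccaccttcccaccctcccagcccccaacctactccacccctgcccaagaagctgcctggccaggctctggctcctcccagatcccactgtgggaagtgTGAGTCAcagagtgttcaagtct
Serpinb6a: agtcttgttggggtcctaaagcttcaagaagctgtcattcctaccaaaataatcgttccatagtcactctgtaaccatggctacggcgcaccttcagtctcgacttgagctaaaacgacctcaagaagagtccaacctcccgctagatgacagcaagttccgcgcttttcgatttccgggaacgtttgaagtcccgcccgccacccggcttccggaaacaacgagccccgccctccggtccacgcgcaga
The AP-1 letters began 140 bases before the start in Serpinb5, 181 and 76 bases before it in Serpinb11, 94 in Serpinb2 and 23 in Serpinb8. They read TGAATCA in Serpinb5 and Serpinb2, TGATTCA and TGAATCA in Serpinb11, and TGAGTCA, a usual form, only in Serpinb8. The Serpinb6a sequence held none and had 20 CpG pairs, against a median of 1.5 over the members and of 6 over all promoters. RefSeq places the start of Serpinb11 inside the gene as GENCODE draws it.

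Per kilobase of exon, the members together reached a mean of 144 CPM per kilobase in the Ba/Sq tumors, with a range from 24.5 to 340, and means of 40.6 in BURP-16SR and 43.0 in BURP-19NE. The chromosome 1 cluster made up 63.7% ± 12.7 (SD, n = 18) of this sum in the Ba/Sq tumors, 2.26% ± 1.32 (SD, n = 3) in BURP-16SR and 0.742% ± 0.377 (SD, n = 3) in BURP-19NE. The chromosome 13 cluster summed to 47.6 CPM per kilobase in the Ba/Sq tumors, 39.8 in BURP-16SR and 42.7 in BURP-19NE. These values depend on the length used for Serpinb6a, whose exons together span 5409 bases while its longest transcript has 2191. With the longest transcript of each gene, the sums were 177, 71.3 and 85.8 CPM per kilobase, the chromosome 1 shares 53.8% ± 14.4, 1.47% ± 0.856 and 0.404% ± 0.214 (SD), and the chromosome 13 sums 75.1, 70.3 and 85.4, in the same order of groups. Serpinb6a then reached a mean of 38.2 CPM per kilobase in the Ba/Sq tumors, near the 40.3 of Serpinb5.

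Averaged over the Ba/Sq tumors, Serpinb5 had the highest level per kilobase, at 39.2 ± 13.5 CPM per kilobase (SD, n = 18). It was followed by Serpinb1a at 22.9 ± 18.9, Serpinb2 at 19.2 ± 22.3, Serpinb11 at 17.9 ± 22.4 and Serpinb6a at 15.5 ± 4.42 (each SD, n = 18), whose spreads overlapped. The order was not the same in every line, since in BURP-24BaSq Serpinb2 (61.4), Serpinb11 and Serpinb1a (both 56.5) had higher means than Serpinb5 (54.7), and in BURP-18BaSq Serpinb6a (17.4) had a higher mean than Serpinb5 (16.1). In BURP-16SR and BURP-19NE, Serpinb6a led with 20.3 ± 6.03 and 28.8 ± 6.28 CPM per kilobase (SD, n = 3 each), 49.3% ± 5.63 and 67.0% ± 1.81 of the sum over all members.

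**Figure D1:**
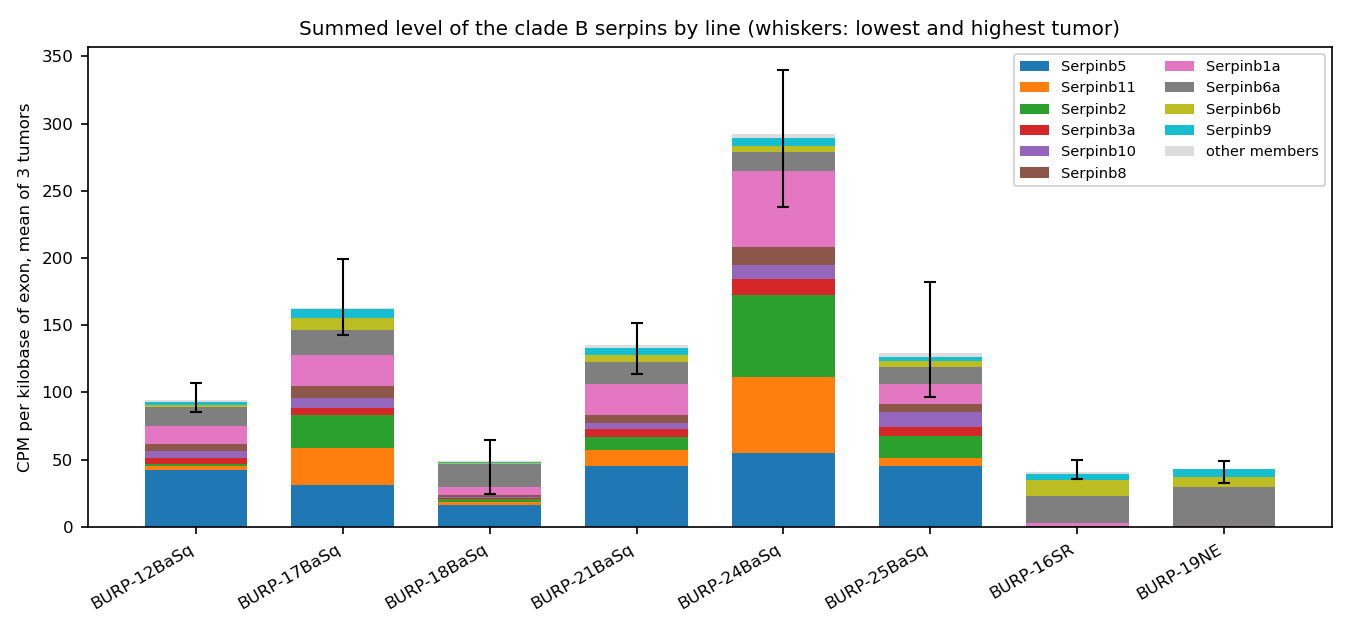
Level of the clade B serpins summed per kilobase of exon (CPM per kilobase, linear axis from 0), by line, with each member's contribution stacked as the mean of 3 tumors and whiskers from the lowest to the highest tumor. The Ba/Sq lines ran from 49.2 in BURP-18BaSq to 292 in BURP-24BaSq and carried much Serpinb5, while BURP-16SR (40.6) and BURP-19NE (43.0) consisted mainly of Serpinb6a and other chromosome 13 members.

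The NE-like line and the SR line were set against the 18 Ba/Sq tumors in turn, to ask which clade B serpins went with the squamous phenotype. Both comparisons used the same Ba/Sq tumors, so their results are given side by side and are not independent of each other. In each, 14 of the 26 members had enough counts to be tested, and since several of them passed that filter only through the Ba/Sq tumors, the counts describe these genes and support nothing by themselves. A member was called where the adjusted p (edgeR's quasi-likelihood test, Benjamini-Hochberg over all genes tested) was under 0.05 and the level differed more than 2-fold.

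In BURP-19NE, 9 of the 14 tested members were lower than in the Ba/Sq tumors and 0 were higher. Of all 20995 genes tested, 15.0% were called lower and 9.33% higher. The median log2 fold change of the tested members was -6.39, or -4.91 with the 6 genes at 0 in BURP-19NE set at their bound, against -0.14 over all genes tested. In BURP-16SR, 7 of the 14 were lower and 1 was higher. Of all 21028 genes tested, 8.62% were called lower and 10.5% higher, and the members' median was -4.08, or -3.65 with the 4 genes at 0 set at their bound, against -0.03 over all. Without tumors C102-M1 and C102-M30, 9 members were lower in BURP-19NE, and 7 were lower and 1 higher in BURP-16SR. The basal and squamous marker genes moved with these differences, with 12 of 12 called lower in both lines, and their part in the serpin levels was not tested.

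**Figure D2:**
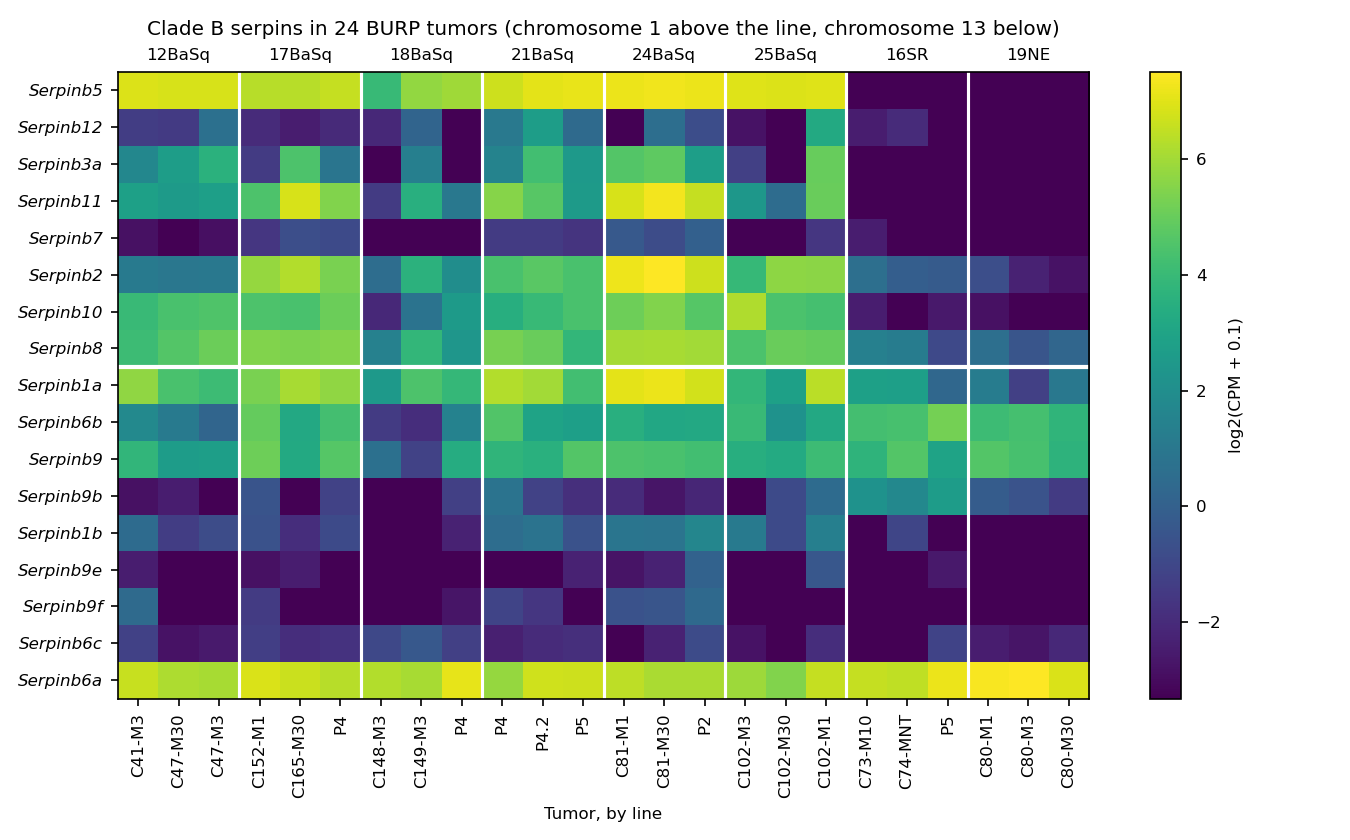
Level of the 17 members with at least 10 counts in some tumor, as log2(CPM + 0.1), in each of the 24 tumors grouped by line, with members in chromosome order. Serpinb5 and Serpinb11 were above 0 CPM in every Ba/Sq tumor and at 0 in the 6 tumors of BURP-16SR and BURP-19NE, whereas Serpinb6a was at 43.6 CPM or more in every tumor.

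Among the epithelial members of chromosome 1, Serpinb5 (maspin, ENSMUSG00000067006.12, 1:106861173-106883348, plus strand), a non-inhibitory serpin of epithelial cells, divided the line types without overlap. Over the 18 Ba/Sq tumors its level had a minimum of 15.7, a median of 119 and a maximum of 157 CPM, and all 3 BURP-16SR and all 3 BURP-19NE tumors had 0 counts. Its level was at least 2340-fold lower in BURP-19NE and at least 1410-fold lower in BURP-16SR, counted against a floor of 3 counts over the group. The fitted log2 fold changes, which depend on the prior count for a gene at 0, were -14.03 ± 1.02 (SE, edgeR adjusted p = 3.72e-09) and -13.93 ± 1.05 (SE, edgeR adjusted p = 6.96e-09).

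Serpinb11 (epipin, ENSMUSG00000026327.8, 1:107361198-107380475, plus strand), an inhibitor of trypsin-like proteases in the mouse, showed the same split with a far wider range among the Ba/Sq tumors. Its lowest, median and highest levels there were 0.273, 16.6 and 160 CPM, against 0 counts in all tumors of BURP-16SR and BURP-19NE. The lowest, in tumor C148-M3 of BURP-18BaSq, rested on 2 counts. The level was lower by at least 848-fold in BURP-19NE (log2 fold change -12.56 ± 2.99, SE, edgeR adjusted p = 0.00321) and by at least 511-fold in BURP-16SR (-12.48 ± 3.14, SE, edgeR adjusted p = 0.00666). With limma-voom it was not called in either.

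Serpinb3a (ENSMUSG00000044594.14, 1:107045587-107052303, minus strand), a relative of the human squamous cell carcinoma antigens, which inhibit cysteine and serine proteases, was at 0 in some Ba/Sq tumors too. It ran from 0 over a median of 4.32 to 31.6 CPM in the Ba/Sq tumors and had 0 counts in BURP-16SR and BURP-19NE, so the groups overlapped at 0. It was called lower in BURP-19NE (at least 200-fold, edgeR adjusted p = 0.011) and in BURP-16SR (at least 121-fold, edgeR adjusted p = 0.0218). The BURP-16SR call was lost when any 1 of its 3 tumors was left out (adjusted p 0.071 to 0.0773), and with limma-voom neither line was called (adjusted p = 0.232 in BURP-19NE and 0.331 in BURP-16SR).

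Serpinb12 and Serpinb7 were low throughout. Serpinb12 ran from 0 to 9.39 CPM with a median of 0.272 in the Ba/Sq tumors, was at 0 counts in BURP-19NE and at 0.0843, 0.154 and 0 CPM in BURP-16SR. It was called lower in BURP-19NE only while all 3 tumors were kept (at least 29.7-fold, edgeR adjusted p = 0.0365; 0.101 to 0.11 without any 1 of them), and not with limma-voom (0.18). In BURP-16SR it was not called by edgeR (adjusted p = 0.15) and was called by DESeq2 (0.0408). Serpinb7 (megsin) did not pass the filter in either comparison, with a highest level of 0.904 CPM in BURP-24BaSq and of 0.0843 CPM in BURP-16SR.

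Serpinb2 (plasminogen activator inhibitor 2, ENSMUSG00000062345.10, 1:107511423-107535478, plus strand), an inhibitor of urokinase, was detected in every tumor. It ran from 1.36 over a median of 23.8 to 182 CPM in the Ba/Sq tumors, and its 3 levels were 1.43, 0.846 and 0.765 CPM in BURP-16SR and 0.502, 0.105 and 0.0451 CPM in BURP-19NE. All BURP-19NE tumors were below all Ba/Sq tumors, whereas the highest BURP-16SR tumor was just above the lowest Ba/Sq tumor. Serpinb2 fell 193-fold in BURP-19NE (edgeR adjusted p = 0.00434) and 42.5-fold in BURP-16SR (edgeR adjusted p = 0.0202), and the BURP-16SR call was lost without any 1 of its 3 tumors (adjusted p 0.0719 to 0.0808). With limma-voom it was called in neither line (adjusted p = 0.17 in BURP-19NE and 0.265 in BURP-16SR).

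Plau (urokinase), the protease it inhibits, averaged 42.3 ± 15.9 CPM (SD) over the 18 Ba/Sq tumors, 88.3 ± 48.8 over 3 BURP-16SR tumors and 15.9 ± 6.59 over 3 BURP-19NE tumors. Plau rose in BURP-16SR by a log2 fold change of 1.12 (edgeR adjusted p = 0.0139) and changed in BURP-19NE by -1.41 (edgeR adjusted p = 0.00831). Serpinb2 was thus called lower in both lines while Plau was called in opposite directions in them.

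Serpinb10 (bomapin, ENSMUSG00000092572.7, 1:107529003-107549271, plus strand), known from blood cells of the bone marrow, overlaps Serpinb2 on the same strand, and the estimated counts of each were not whole numbers in 16 tumors, so the split of reads between them is uncertain. It ran from 0.136 over a median of 21.1 to 74.020 CPM in the Ba/Sq tumors, was at 0.0843, 0 and 0.0695 CPM in BURP-16SR and at 0.0418, 0 and 0 CPM in BURP-19NE, without overlap in CPM. The lowest Ba/Sq tumor, C148-M3 of BURP-18BaSq, held 1 count, as did C73-M10 and P5 of BURP-16SR and C80-M1 of BURP-19NE. At that tumor the separation was therefore only one of depth. With 2 counts in BURP-16SR and 1 in BURP-19NE, the pooled ratios were 486 (95% counting interval 135 to 4010) and 1610 (290 to 63700), and both calls passed (edgeR adjusted p = 0.000251 and 6.91e-05) but were lost with limma-voom (adjusted p = 0.128 and 0.0753). Summed to avoid the split, Serpinb2 and Serpinb10 averaged 68.0 ± 60.8 CPM (SD) over the 18 Ba/Sq tumors, 1.07 ± 0.391 in BURP-16SR and 0.231 ± 0.272 in BURP-19NE (SD, n = 3 each).

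Serpinb8 (ENSMUSG00000026315.13, 1:107590006-107610484, plus strand), an inhibitor of furin, was lower in both lines and was at 0 in none. Its levels were 2.53, 2.23 and 0.417 CPM in BURP-16SR and 1.46, 0.629 and 1.08 CPM in BURP-19NE, below the lowest Ba/Sq tumor at 2.59 CPM and the Ba/Sq median of 32.7 CPM. It fell 30.4-fold in BURP-19NE (log2 fold change -4.93 ± 0.87, SE, edgeR adjusted p = 0.000187) and 18.2-fold in BURP-16SR (-4.18 ± 0.88, SE, edgeR adjusted p = 0.00146). Furin averaged 220 ± 81.2 CPM (SD) over the 18 Ba/Sq tumors, 381 ± 80.2 in BURP-16SR and 161 ± 22.1 in BURP-19NE (SD, n = 3 each) and was called in neither.

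**Figure D3:**
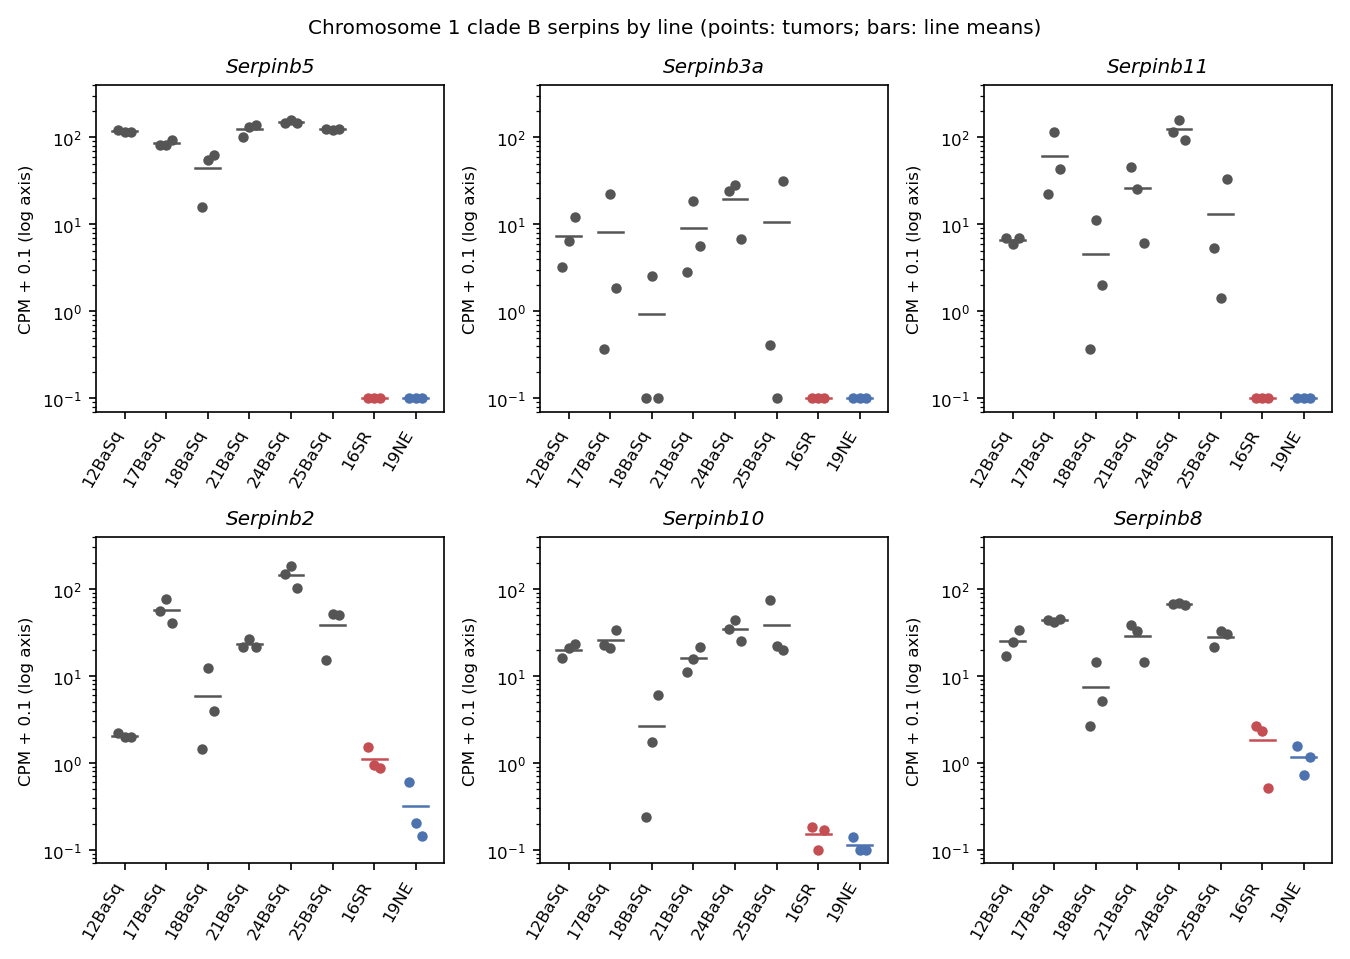
Level of 6 chromosome 1 members (CPM + 0.1, log axis) in each tumor by line, one panel per gene, with tumors as points and line means as horizontal bars, BURP-16SR in red and BURP-19NE in blue. In the Serpinb5 panel every Ba/Sq tumor lay at 15.7 CPM or higher and the 6 other tumors at 0, while in the Serpinb2 panel BURP-12BaSq, at 1.86 to 2.11 CPM, lay near BURP-16SR.

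The chromosome 13 members did not move as one group. Serpinb1a (ENSMUSG00000044734.16, 13:32842092-32851185, minus strand), an inhibitor of the neutrophil proteases elastase, cathepsin G and proteinase 3, was the abundant one that was lower in both lines. It ran from 5.73 over a median of 45.9 to 145 CPM in the Ba/Sq tumors and was at 6.99, 6.77 and 1.11 CPM in BURP-16SR and at 2.26, 0.314 and 1.94 CPM in BURP-19NE. BURP-19NE did not overlap the Ba/Sq tumors and BURP-16SR did, narrowly.

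Serpinb1a fell 33.9-fold in BURP-19NE (log2 fold change -5.09 ± 1.12, SE, edgeR adjusted p = 0.00144) and 10.1-fold in BURP-16SR (-3.33 ± 1.004, SE, edgeR adjusted p = 0.0186). The BURP-16SR call was lost without any 1 of its 3 tumors (adjusted p 0.0535 to 0.0839) and with limma-voom (0.058). Of its targets, Elane was at no more than 0.133 CPM and Ctsg at no more than 0.159 CPM in any tumor. Prtn3 (proteinase 3) reached 0.876 CPM in the Ba/Sq tumors, was at 0.337 to 0.538 CPM in BURP-16SR and at 0 in BURP-19NE. The neutrophil markers, 10 genes, summed to a median of 39.9 CPM in the Ba/Sq tumors, to between 70.0 and 205 CPM in BURP-16SR and to between 1.99 and 3.93 CPM in BURP-19NE, where Ly6g was at 0. Their part in the Serpinb1a level was not tested.

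Serpinb1b, a close copy of Serpinb1a, was at 0 counts in BURP-19NE and at 0, 0.385 and 0 CPM in BURP-16SR, against 0 to 3.04 CPM in the Ba/Sq tumors with a median of 0.567. It was called lower in BURP-19NE (at least 22.2-fold, edgeR adjusted p = 0.00458), though 2 of the 18 Ba/Sq tumors were also at 0. In BURP-16SR it was not called (edgeR adjusted p = 0.114), but it passed with DESeq2 (0.0412), with all 24 tumors in 1 edgeR fit (0.0481) and without tumor C74-MNT (0.0457).

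Serpinb9b (ENSMUSG00000021403.3, 13:33027416-33041884, plus strand), an inhibitor of granzyme M, was the one member called higher. Its levels were 4.55, 3.23 and 6.26 CPM in BURP-16SR and 0.795, 0.576 and 0.271 CPM in BURP-19NE, against a lowest of 0, a median of 0.138 and a highest of 1.64 CPM in the Ba/Sq tumors. All 3 BURP-16SR tumors were above every other tumor. Against the Ba/Sq tumors, it rose 15.9-fold in BURP-16SR (log2 fold change 3.99 ± 0.83, SE, edgeR adjusted p = 0.00132) and was not called in BURP-19NE (edgeR adjusted p = 0.547).

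The marker sums of other cells were set beside it in the 3 BURP-16SR tumors. Tumor P5 had the highest Serpinb9b, 6.26 CPM, and the lowest sums of the 10 macrophage markers (163 CPM, against a highest of 847) and of the 11 T and NK cell markers (0.556 CPM, against 39.3 and 45.3 in the other tumors). It also had the lowest sum of the 10 fibroblast markers, 626 CPM, against a highest of 20640 CPM. The 10 neutrophil markers summed to 205 CPM in C73-M10, 70.0 CPM in C74-MNT, which had the lowest Serpinb9b, and 137 CPM in P5, and the part of any of these cells in the Serpinb9b level was not tested. Gzmm, the target, was at 0.489 CPM in the Ba/Sq tumors, 0.515 in BURP-16SR and 0.332 in BURP-19NE.

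Serpinb6b and Serpinb9 were measured in every tumor and called in neither line. Serpinb6b, an inhibitor of granzyme A, was at 19.0, 20.2 and 38.0 CPM in BURP-16SR and 17.3, 20.0 and 13.4 CPM in BURP-19NE, within the Ba/Sq range of 0.171 to 30.6 CPM except for the P5 tumor of BURP-16SR (edgeR adjusted p = 0.153 and 0.415). In a fit of all 24 tumors with 1 term per line it passed in both, at log2 fold changes of 2.03 in BURP-16SR (edgeR adjusted p = 0.00103) and 1.42 in BURP-19NE (0.0148). Serpinb9, the inhibitor of granzyme B, was at 13.1, 24.2 and 7.65 CPM in BURP-16SR and 24.4, 20.2 and 12.9 CPM in BURP-19NE, inside the Ba/Sq range of 0.341 to 35.0 CPM (edgeR adjusted p = 0.907 and 0.636).

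Serpinb6a (ENSMUSG00000060147.15, 13:33917918-34002794, minus strand), an inhibitor of cathepsin G that many tissues express, was the most even member. It ran from 43.6 over a median of 79.1 to 138 CPM in the Ba/Sq tumors and was at 94.3, 87.5 and 147 CPM in BURP-16SR and 169, 182 and 118 CPM in BURP-19NE. Of the 3 BURP-19NE tumors, 2 were above every Ba/Sq tumor. The log2 fold change in BURP-19NE, 0.91 ± 0.23 (SE, edgeR adjusted p = 0.00467), was under the fold threshold and reached 1.05 without tumor C80-M30, and that in BURP-16SR was 0.45 (edgeR adjusted p = 0.186). Nqo2 lies inside the gene and Ripk1 overlaps its start, both on the opposite strand, and the strand setting of the counting is not given in the sources used here. Nqo2 itself rose in BURP-19NE by a log2 fold change of 1.23 (edgeR adjusted p = 6.87e-05) without overlap, and whether these genes share reads was not tested.

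The remaining chromosome 13 members with at least 10 counts in some tumor were Serpinb9e, Serpinb9f and Serpinb6c, which have close paralogs in the cluster. The estimates of Serpinb9f were not whole in 62.5% of the tumors with a count, so its reads are uncertain. It ran from 0 to 1.24 CPM in the Ba/Sq tumors and was at 0 in BURP-16SR and BURP-19NE (edgeR adjusted p = 0.173 and 0.0979). Serpinb9e reached 0.945 CPM and Serpinb6c 0.682 CPM at most, and neither passed the filter.

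**Figure D4:**
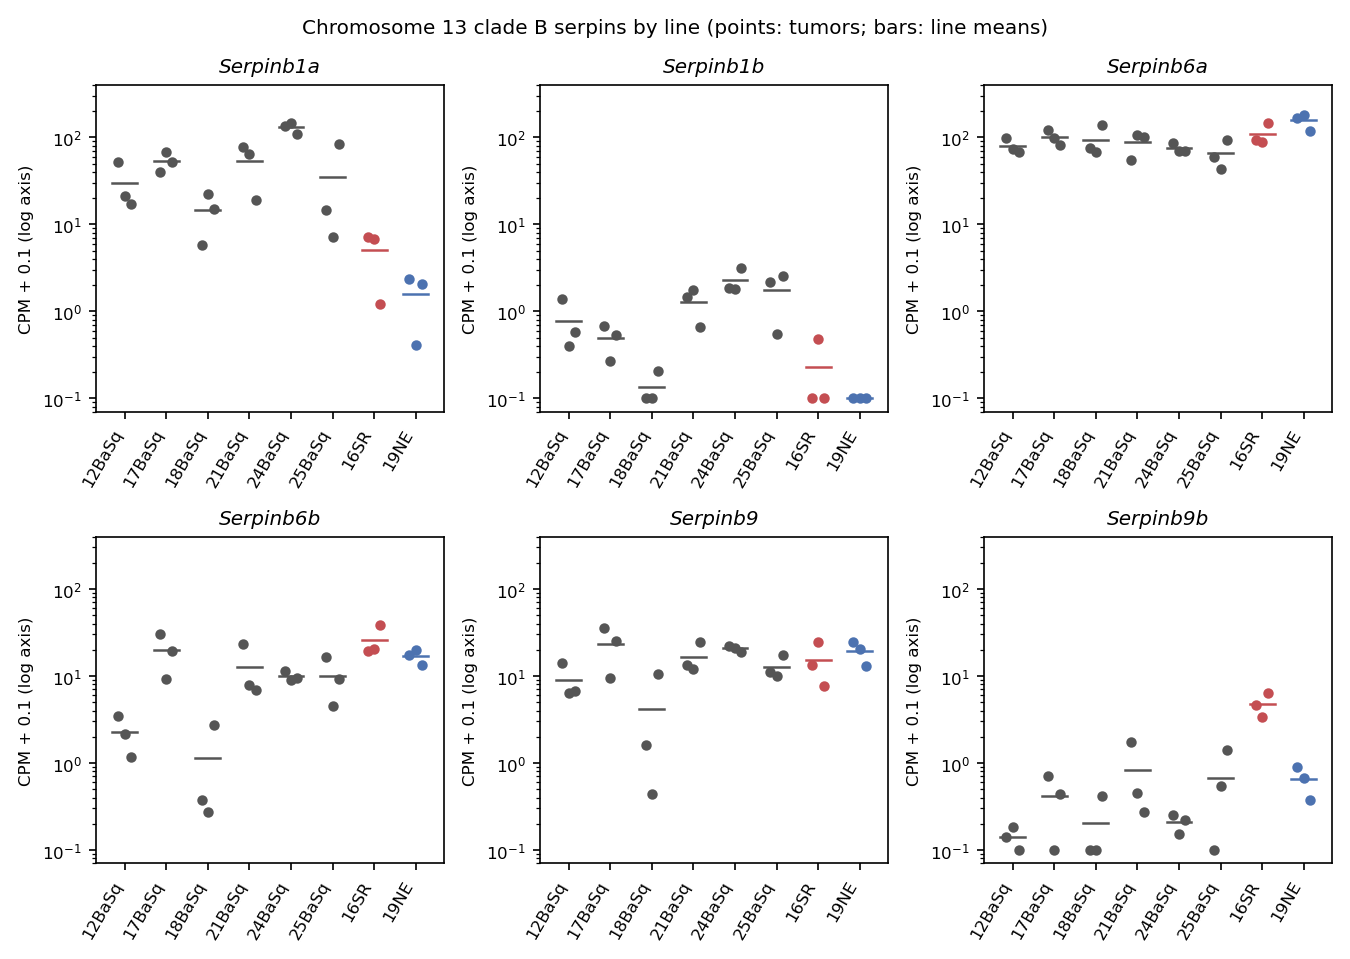
Level of 6 chromosome 13 members (CPM + 0.1, log axis) in each tumor by line, one panel per gene, with tumors as points and line means as horizontal bars, BURP-16SR in red and BURP-19NE in blue. Serpinb9b was highest in BURP-16SR (3.23 to 6.26 CPM), Serpinb1a lowest in BURP-19NE (0.314 to 2.26 CPM), and Serpinb6a at 43.6 to 182 CPM in all tumors.

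Set directly against each other, BURP-16SR and BURP-19NE differed in 1 of 7 tested members. Serpinb9b was 8.95-fold higher in BURP-16SR (log2 fold change 3.16 ± 0.47, SE, edgeR adjusted p = 0.00421). Over all 17556 genes tested, 14.8% were called higher and 8.86% lower in BURP-16SR, and 0 members were lower. Serpinb2 had a log2 fold change of 2.23 that missed the threshold (edgeR adjusted p = 0.0634) and passed with limma-voom (2.64, 0.038), with all 24 tumors in 1 edgeR fit (2.12, 0.0488) and without tumor C80-M1 of BURP-19NE (3.72, 0.026). Serpinb1a passed without tumor P5 of BURP-16SR (2.25, edgeR adjusted p = 0.0401).

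The genes around the clusters were counted to see whether the loci differed as a whole. Of 16 tested neighbours, 2 rose (Nqo2 and Bphl, the latter by a log2 fold change of 1.04) and Foxc1 fell in BURP-19NE, with a median of 0.06. Over all genes tested there, 9.33% were called higher and 15.0% lower. Of 17 tested in BURP-16SR, with a median of -0.06, Foxc1 fell and Cntnap5a rose (log2 fold changes -2.27 and 10.44), against 8.62% of all genes called lower and 10.5% higher. Cntnap5a, a cell adhesion gene of neurons, averaged 36.2 ± 11.6 CPM (SD) over 3 BURP-16SR tumors and had 7 counts over the Ba/Sq tumors. On the chromosome 1 side the called genes were thus serpins and, in BURP-16SR, Cntnap5a. That gene starts at position 115684756, far from the end of the cluster at 107610484.

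**Figure D5:**
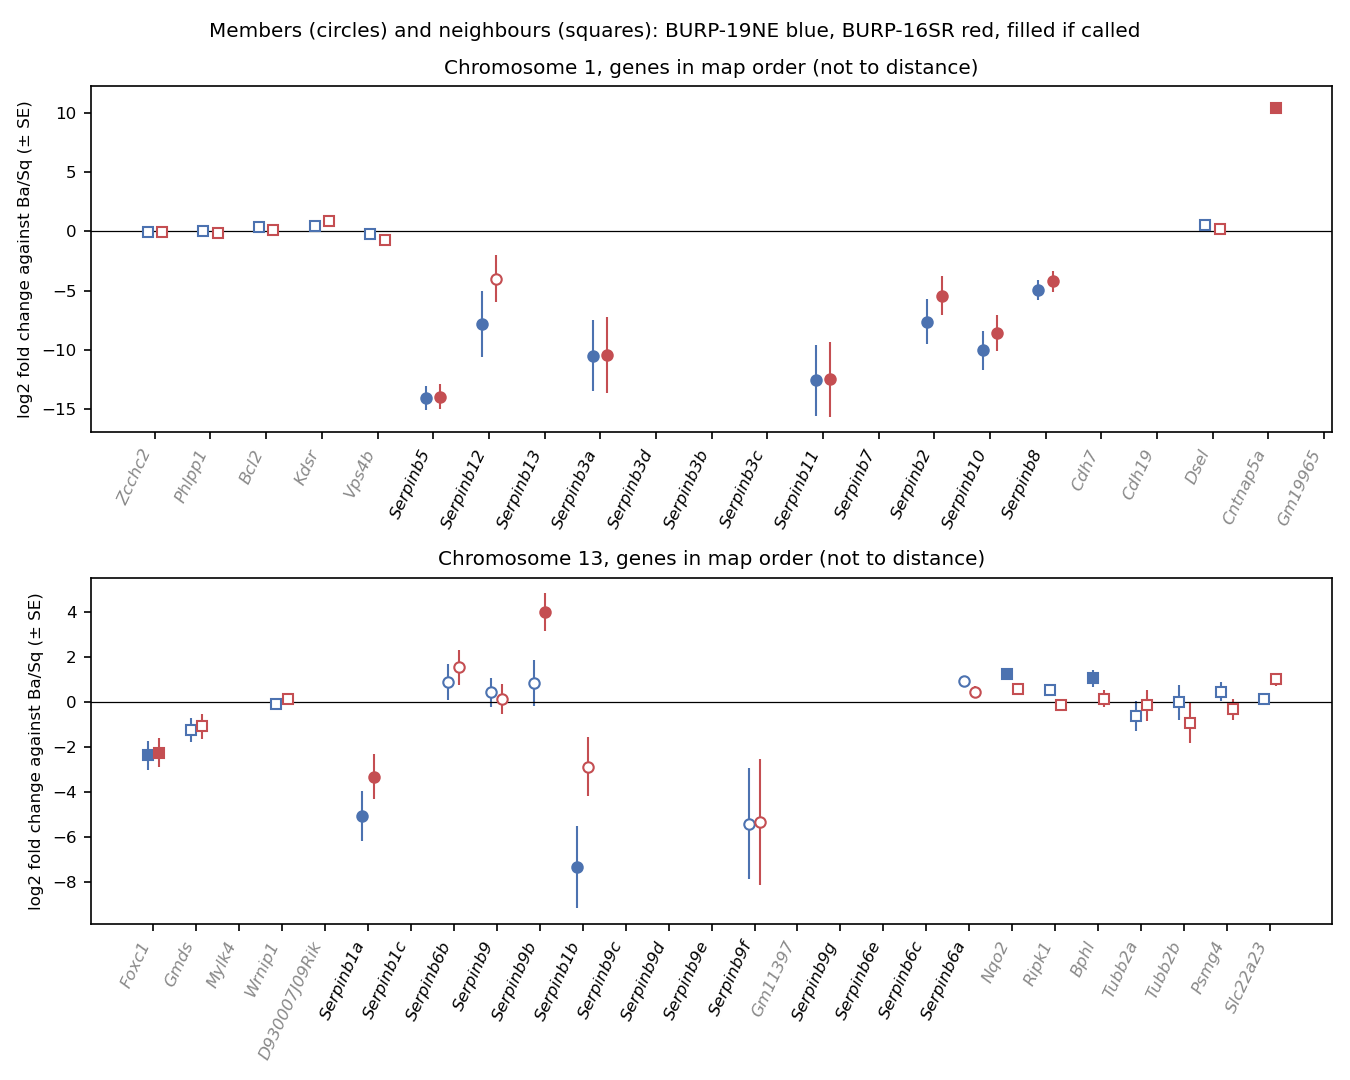
log2 fold change against the Ba/Sq tumors (vertical axis, ± SE) of the tested clade B serpins and their neighbours, in order along chromosomes 1 and 13 (horizontal axis, rank and not distance), for BURP-19NE in blue and BURP-16SR in red, with members as circles, neighbours as squares and called genes filled. Members on chromosome 1 such as Serpinb5 (-14.03 in BURP-19NE) lay far below 0, and Serpinb9b on chromosome 13 lay at 3.99 in BURP-16SR.

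Of the other serpins, of clades that are mostly secreted, 14 were tested in BURP-19NE and 2 were lower, Serpina3i (log2 fold change -7.14) and Serpina3g (-3.41), against 15.0% of all genes tested. In BURP-16SR 15 were tested, and Serpinf1 (2.31) and Serpine2 (2.06) were among those that were higher.

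Of the proteases known as targets of serpins, 19 were tested in BURP-19NE, where 2 were higher, the mast cell chymases Mcpt4 (log2 fold change 2.44) and Cma1 (2.74), and 7 were lower, with St14 (matriptase) at -8.41. Of all genes tested there, 9.33% were called higher and 15.0% lower, so the share of higher proteases was near that of all genes. In BURP-16SR, also with 19 tested, 7 were higher, among them Gzme (3.44), Gzmc (3.25), Mcpt4 (2.77) and Cma1 (2.53), and 2 were lower, the epithelial membrane proteases Prss8 (-5.42) and St14 (-2.90). The shares over all genes tested in this line were 10.5% higher and 8.62% lower. The 8 mast cell markers, of which Mcpt4 is one, summed to 25.2 to 45.2 CPM in BURP-16SR and 3.51 to 31.9 CPM in BURP-19NE, against 2.81 to 33.3 CPM in the Ba/Sq tumors. Of 6 tested, 4 were higher and 0 lower in BURP-16SR, and 3 were higher and 1 was lower in BURP-19NE. Their part in the chymase levels was not tested.

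BURP-24BaSq and BURP-16SR are the lines that were treated with cisplatin in the study, and their serpins were set against each other as a baseline. No label names such a treatment for the tumors measured here. BURP-24BaSq is female and BURP-16SR male, so sex, subtype and donor cannot be told apart in this comparison. Of 12 tested members 8 were higher and 2 lower in BURP-24BaSq, against 13.2% and 15.8% of all 18283 genes tested. Serpinb5 (147, 157 and 147 CPM in BURP-24BaSq), Serpinb11 (116, 160 and 93.6 CPM) and Serpinb3a (24.4, 28.1 and 6.62 CPM) were all at 0 in BURP-16SR, so they were at least 1970-fold, 1610-fold and 258-fold higher.

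Serpinb2, at 149.26, 182 and 102.03 CPM in BURP-24BaSq, was 137-fold higher there than in BURP-16SR, Serpinb8 37.2-fold and Serpinb1a 25.0-fold. Serpinb10 had a log2 fold change of 9.15, and Serpinb1b, 15.5-fold higher (edgeR adjusted p = 0.0195), lost its call without tumor C73-M10 of BURP-16SR or without any 1 BURP-24BaSq tumor. Serpinb9b was 41.1-fold lower in BURP-24BaSq (log2 fold change -5.36 ± 0.49, SE, edgeR adjusted p = 0.000389) and Serpinb6b fell by 1.44 on the log2 scale (edgeR adjusted p = 0.00879), a call lost with all 24 tumors in 1 fit (-1.39, 0.106). BURP-24BaSq had the highest mean of all lines in Serpinb5, Serpinb11, Serpinb2, Serpinb8 and Serpinb1a, so this comparison set the line with the most clade B serpins against the one with the lowest sum.

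Within the squamous phenotype the serpins still varied from line to line. Of 14 tested members, 8 differed among the 6 Ba/Sq lines (edgeR's quasi-likelihood F test, adjusted p under 0.05), against 50.5% of all 20523 genes, so the share of members was close to that of all genes. Without tumors C102-M1 and C102-M30, 10 were called, Serpinb12 and Serpinb7 being added. The Serpinb7 call was not particular to leaving out these tumors. With all tumors it missed the filter on low counts and was not tested. Without that filter it was called with all tumors kept (edgeR adjusted p = 0.00344). Leaving out a tumor from any of the 6 lines could also bring the call, as without C41-M3 of BURP-12BaSq (0.00835), though not every such fit did.

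Serpinb2 differed most clearly (edgeR adjusted p = 6.95e-05). It was at 2.11, 1.86 and 1.91 CPM in BURP-12BaSq, 1.36, 12.2 and 3.82 in BURP-18BaSq, 21.3, 26.3 and 21.2 in BURP-21BaSq, 15.1, 51.2 and 49.8 in BURP-25BaSq, 55.3, 76.2 and 40.0 in BURP-17BaSq and 149.26, 182 and 102.03 in BURP-24BaSq. The BURP-24BaSq tumors were above all others, while BURP-17BaSq and BURP-25BaSq overlapped, as did BURP-18BaSq and BURP-12BaSq.

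Its overlapping neighbour Serpinb10 (edgeR adjusted p = 0.00972) had another order. It was at 15.9, 20.9 and 23.0 CPM in BURP-12BaSq, where Serpinb2 was among its lowest, and at 0.136, 1.62 and 5.90 CPM in BURP-18BaSq. The levels were 22.6, 21.0 and 33.8 CPM in BURP-17BaSq, 11.1, 15.7 and 21.1 in BURP-21BaSq, 34.6, 43.6 and 24.9 in BURP-24BaSq and 74.020, 21.8 and 19.6 in BURP-25BaSq. BURP-18BaSq lay below the others without overlap, and the other 5 lines overlapped with their neighbours in the order.

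The tumors of a line lay close together in Serpinb5 (edgeR adjusted p = 0.0075) except in BURP-18BaSq. Its 3 levels were 147, 157 and 147 CPM in BURP-24BaSq, 102.47, 132 and 140 in BURP-21BaSq, 125, 123 and 125 in BURP-25BaSq, 123, 114 and 115 in BURP-12BaSq, 81.9, 81.2 and 93.9 in BURP-17BaSq and 15.7, 54.4 and 62.7 in BURP-18BaSq. BURP-24BaSq was above and BURP-18BaSq below all other Ba/Sq tumors.

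Serpinb8 (edgeR adjusted p = 0.00255) was at 66.6, 68.7 and 65.1 CPM in BURP-24BaSq, 43.8, 41.4 and 45.1 in BURP-17BaSq, 38.5, 33.0 and 14.3 in BURP-21BaSq, 21.5, 32.5 and 30.4 in BURP-25BaSq, 17.0, 24.4 and 33.4 in BURP-12BaSq and 2.59, 14.2 and 4.99 in BURP-18BaSq. The lines BURP-24BaSq, BURP-17BaSq and BURP-18BaSq were apart from the rest, and the other 3 overlapped. As in Serpinb5, BURP-24BaSq was highest and BURP-18BaSq lowest.

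Serpinb11 (edgeR adjusted p = 0.0074) overlapped between neighbouring lines throughout. Its levels were 116, 160 and 93.6 CPM in BURP-24BaSq, 22.1, 116 and 43.7 in BURP-17BaSq, 45.9, 25.6 and 5.95 in BURP-21BaSq, 5.26, 1.33 and 33.0 in BURP-25BaSq, 6.96, 5.83 and 6.91 in BURP-12BaSq and 0.273, 11.2 and 1.91 in BURP-18BaSq. The tumors of BURP-25BaSq were the farthest apart in fold of the female lines, while those of BURP-12BaSq were nearly equal. In BURP-25BaSq the 1.33 CPM of C102-M30 rested on 3 counts, and the 33.0 CPM belonged to C102-M1, whose label is in doubt.

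Serpinb1a (edgeR adjusted p = 0.0314) was at 135, 145 and 110 CPM in BURP-24BaSq, 39.8, 68.2 and 52.7 in BURP-17BaSq, 76.6, 64.2 and 18.9 in BURP-21BaSq, 14.5, 7.12 and 84.1 in BURP-25BaSq, 52.0, 21.0 and 16.9 in BURP-12BaSq and 5.73, 22.5 and 14.9 in BURP-18BaSq. BURP-24BaSq was above all others and the remaining lines overlapped. The value of 84.1 CPM belonged to the doubtful tumor C102-M1, and the call was lost in 7 of the 18 fits that left out 1 tumor (adjusted p 0.0509 to 0.0817).

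Serpinb6b (edgeR adjusted p = 0.00648) was highest in BURP-17BaSq, at 30.6, 9.10 and 19.4 CPM, and lowest in BURP-18BaSq, at 0.273, 0.171 and 2.66 CPM, and BURP-12BaSq, at 3.36, 2.07 and 1.07 CPM. BURP-21BaSq (23.4, 7.76 and 6.83 CPM), BURP-24BaSq (11.2, 8.90 and 9.25 CPM) and BURP-25BaSq (16.2, 4.45 and 9.22 CPM) lay between them and overlapped. Serpinb1b (edgeR adjusted p = 0.00328) had line means from 0.0354 CPM in BURP-18BaSq to 2.17 CPM in BURP-24BaSq, with overlap between neighbours.

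Serpinb3a, Serpinb12, Serpinb9, Serpinb9b, Serpinb9f and Serpinb6a were not called among the Ba/Sq lines (edgeR adjusted p = 0.399, 0.107, 0.114, 0.168, 0.131 and 0.514). In the first of them the tumors of 1 line spread widely, as in BURP-17BaSq, where Serpinb3a was at 0.267, 22.1 and 1.76 CPM. Serpinb12 passed without C102-M1 (edgeR adjusted p = 0.0279), which was at 9.39 CPM against 0.0442 and 0 in its line, and also without C102-M3 (0.0439). Serpinb9 passed without tumor P4 of BURP-18BaSq (edgeR adjusted p = 0.00266) and, with all 18 tumors, by DESeq2 (0.0478) and limma-voom (0.0104). Serpinb9 was lowest in C149-M3 of BURP-18BaSq, at 0.341 CPM, the tumor with the lowest macrophage marker sum, 27.3 CPM, and a T and NK cell marker sum of 2.73 CPM, and the part of these cells was not tested.

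Between the sexes, 9 tumors of 3 male Ba/Sq lines were compared with 9 of 3 female lines. Of 11 tested members 0 were higher and 1 was lower in the male lines, against 1.09% and 1.22% of all 17922 genes tested. Serpinb1b was at 0.371 ± 0.400 CPM (SD, n = 9) in the male and 1.67 ± 0.829 CPM (SD, n = 9) in the female tumors (log2 fold change -2.08 ± 0.52, SE, edgeR adjusted p = 0.0261), and the tumors overlapped. With the counts summed per line, so that each donor counted once, the log2 fold change was -2.19 and the adjusted p 0.751. The call was also lost without BURP-18BaSq (-1.67, adjusted p = 0.0524), BURP-24BaSq (-1.90, 0.114) or BURP-25BaSq (-2.04, 0.061), or without tumor P2 of BURP-24BaSq alone (-1.93, 0.0539), by edgeR in each case. Without BURP-17BaSq 4 members were called lower in the male lines, Serpinb11, Serpinb6b and Serpinb2 being added.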

How the data were processed

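Bulk RNA from 24 BURP tumors, 3 of each of 8 lines, was prepared from 500 ng with an rRNA-depleting kit (KAPA RNA HyperPrep with RiboErase). The authors deposited estimated counts per gene, which per the submitters' processing notes were made with CASAVA 1.8.2, STAR 2.6.0a and RSEM 1.3.1 on GRCm38, and the strand setting of the counting is not given in the sources used here. Of the deposited estimated counts 12.5% were not whole, and all were rounded to whole numbers before testing. Gene symbols came from the GENCODE M21 annotation, which held 99.8% of the identifiers. Line, subtype and sex were taken from the labels and the study's description of the lines.

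Levels are counts scaled to 1e+06 per tumor (CPM) after TMM normalization over the 24 tumors, or CPM per kilobase of exon where genes are compared. Tests used edgeR 4.0.16 in R 4.3.3 (filterByExpr, TMM, glmQLFit, glmQLFTest) over all genes, with Benjamini-Hochberg adjustment, and calls needed an adjusted p under 0.05 and, except among the 6 lines, more than a 2-fold difference. Alternatives were DESeq2 1.42.0 and limma-voom 3.58.1, other filters on low counts, all tumors in 1 fit, counts summed per line and leaving out tumors or lines; summing Serpinb2 with Serpinb10 was added after the data were seen. On counts simulated for the NE-like comparison with 200 genes changed 4-fold among 20249, edgeR recovered 97% of them, and in the comparisons of 3 tumors against 3 it recovered 88% (BURP-16SR against BURP-19NE, 17284 genes) and 87% (BURP-24BaSq against BURP-16SR, 17870 genes). The simulation gave every gene a dispersion of 0.1, had no differences between lines and changed only genes above a minimum expected count. These shares therefore do not give the power for members with few counts or a wide spread. Of the genes called on counts simulated in the same way for the 6 lines, 2.04% were false with edgeR, 22.09% with DESeq2 and 3.52% with limma-voom. For BURP-16SR against the Ba/Sq lines the false shares were 4.46%, 9.91% and 8.17%, in the same order.

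The members and gene lists were chosen with earlier results of these data known. By the rule for named genes all members were accounted for, levels were given per tumor for called members and fold changes for called members only (at most the 8 largest in each direction), and other lists were named where called. The fold changes of Serpinb8 in BURP-19NE and of members that were not called lay outside that rule and were chosen after their values were seen. Some genes of the other lists are not reported here.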

Additional observations from a re-analysis of the deposited data

Results flagged for a closer look

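In groups of 9 tumors of 1 sex, 31 member levels on a log2 scale (CPM + 0.5) were examined for an outlying tumor. A tumor stood out where its gap to its neighbour exceeded Dixon's 95% critical share of the range, and 3 did. Chance flags about 1 in 20 groups of independent tumors from 1 normal distribution. Here the tumors of a line shared a donor and the lines differed, so that rate need not hold. Serpinb5 was low in tumor C148-M3 of BURP-18BaSq, at 15.7 CPM against the next lowest 54.4 CPM and the highest 123 CPM among the male Ba/Sq tumors, a gap of 0.602 of the range. Serpinb9f was high in C41-M3 of BURP-12BaSq, at 1.24 CPM against the next 0.267 CPM, a gap of 0.658. Serpinb6c was high in P2 of BURP-24BaSq, at 0.452 CPM against the next 0.176 CPM among the female tumors, a gap of 0.532.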

How the results depend on the processing

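Over all pairs of a count and a setting, the counts of called members (higher and lower) kept within 1.5 times their value in 246 and moved in 29. Counts that stayed at 0 were among those kept. In BURP-19NE 9 lower became 4 with limma-voom and 1 where at least 10 counts were required in every tumor, a filter that drops genes at 0 by construction, and 0 higher became 1 with all 24 tumors in 1 fit; leaving out 1 tumor gave 8 to 9 lower and 0 to 1 higher. In BURP-16SR 7 lower became 2 with limma-voom and 2 with the 10-count filter, and 1 higher became 0 with that filter and 2 with all 24 tumors in 1 fit; leaving out 1 tumor gave 4 to 7 lower. For BURP-16SR against BURP-19NE, 1 higher became 2 with limma-voom, 0 with the 10-count filter and 2 with all tumors in 1 fit, and leaving out 1 tumor gave 1 to 2. For BURP-24BaSq against BURP-16SR, 8 higher became 2 with the 10-count filter and 2 lower became 1 with it and 1 with all tumors in 1 fit, and leaving out 1 tumor gave 7 to 10 higher. Between the sexes, 1 lower became 0 without a filter, 0 with the 10-count filter, 0 with counts summed per line and 4 with all 24 tumors in 1 fit, and leaving out 1 tumor or line gave 0 to 4. Among the 6 lines, 8 became 4 with the 10-count filter, and leaving out 1 tumor gave 7 to 10. The cause was not tested except for the 10-count filter. For named members, 829 values kept the call and, outside the test among the 6 lines, the direction, 40 lost the call and 0 reversed. Fits in which a filter dropped the member were not counted. No paired analysis was possible because the labels give no replicate numbers, only tumor codes such as C80-M30 or P4, whose meaning they do not state. Depth limits genes at 0 to the floors given with the totals.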

Other observations

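The estimated counts divided Serpinb2 and Serpinb10 unevenly in BURP-25BaSq. Tumor C102-M3 was at 15.1 CPM of Serpinb2 and 74.020 CPM of Serpinb10, and C102-M30 at 51.2 and 21.8 CPM. Their sums in the 3 tumors of the line ran only from 69.4 to 89.1 CPM. Tumor C102-M1, whose label is in doubt, had the highest Serpinb12 (9.39 CPM) and Serpinb3a (31.6 CPM) of all 24 tumors.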
